A study of Mus musculus with 4 samples.

Results

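Stool bacteria of mice given neomycin by injection were compared with those of mice given phosphate-buffered saline (PBS) by the same route. The libraries were those whose entry in the authors' sample sheets gave day 4, neomycin or PBS, and intraperitoneal (IP) or intravenous (IV) treatment. They numbered 21 of the 198 fecal libraries of the series, or of the 91 from day 4: 6 of neomycin IP, 4 of neomycin IV, 5 of PBS IP and 6 of PBS IV. All were wild-type C57BL6/J mice aged 8 to 12 weeks, kept on standard chow under specific pathogen-free conditions. Neomycin mice received 2.5 mg in 100 µl of PBS, and PBS mice 100 µl of PBS alone, in 2 daily doses over 3 days with a last dose on day 4. The animals were killed 4 hours after the last dose. The labels used here give neither sex nor cage, and p-values measure only the spread between these samples.

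Neomycin is an aminoglycoside, an antibiotic that binds the small ribosomal subunit and disturbs protein synthesis. It is known as most active on aerobic and facultative Gram-negative bacteria such as the Enterobacteriaceae, because its uptake depends on respiration, and obligate anaerobes are largely insensitive to it. Given by mouth it is poorly absorbed and stays in the gut, while injected aminoglycosides are cleared mainly by the kidney. The stool of laboratory mice is dominated by obligate anaerobes, chiefly the Muribaculaceae and Prevotella of the phylum Bacteroidota and the Lachnospiraceae and Oscillospirales of the Firmicutes.

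The V4 stretch of the bacterial 16S rRNA gene was measured, and each value is a share of a library's reads, so that less of 1 taxon and more of the others cannot be told apart. Reads were recovered from the scaled values, and the depth was at least 1000 reads in 20 of the 21 libraries. These held 21241 to 110305 reads in neomycin IP, 30034 to 52540 in neomycin IV, 16555 to 46424 in PBS IP and 8556 to 38424 in PBS IV. A taxon listed at 0 can lie below a limit of 3 reads, which was 0.00272% to 0.0351% in these libraries. Reads from PCR can copy 1 molecule, so that limit holds for counting error alone. Of the PBS IV libraries, 3 (replicates 4 to 6) were in sequencing run SB1, and all others were in run ok122. Of the 488 taxa of the table, 175 had no values for run SB1 and were read as 0 there.

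Neomycin IP replicate 4 stood apart with 70 reads, in which a taxon at 0 can lie anywhere below 4.29%. It held 29 reads of Muribaculum and 16 of Streptococcus, with 9 and 7 of a pair of Prevotella species (Prevotella sp902776665 and Prevotella melaninogenica). The remainder was 4 reads of unclassified Muribaculaceae, 3 of Gemella and 2 of Parvimonas micra. Values below are without this library unless it is named.

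The first question was whether injected neomycin changed the diversity of the stool bacteria. The Shannon index, which rises with the number of taxa and the evenness of their shares (natural log), was 3.46, 2.57, 3.04, 3.55 and 3.09 in the 5 neomycin IP libraries. In PBS IP it was 2.77, 3.33, 3.22, 2.59 and 2.89. Both the lowest and the highest value were in neomycin IP, and the ranges overlapped. In the 4 neomycin IV libraries it was 3.02, 3.07, 2.71 and 3.35, and in the 6 of PBS IV it ran from 2.58 over a median of 2.90 to 3.15. By IV no library of neomycin lay below the PBS range, and 1 lay above it.

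Mean Shannon indices were 3.14 ± 0.388 in neomycin IP and 2.96 ± 0.310 in PBS IP (SD, n = 5 each). The difference was 0.179, with a 95% interval of -0.310 to 0.688 (two-sided exact permutation p = 0.421). They were 3.04 ± 0.263 in neomycin IV (n = 4) and 2.89 ± 0.197 in PBS IV (n = 6), a difference of 0.149 (-0.198 to 0.498, exact p = 0.333). Over both routes, with route as a block, the difference was 0.164 (-0.109 to 0.434, exact p = 0.217, adjusted p = 0.421 over the 3 comparisons). With the library of 70 reads, whose index was 1.60, the IP difference was -0.0788 (exact p = 0.866) and that over both routes 0.0349 (exact p = 0.870). Within run ok122 alone the difference was 0.0577 by IV (exact p = 0.8) and 0.118 over both routes (exact p = 0.398).

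Taxon richness was compared at an equal depth, since deeper libraries show more rare taxa. In 1000 reads of each library 69.7 ± 11.5 taxa were found with neomycin (SD, n = 9) and 62.7 ± 10.2 with PBS (n = 11). The highest count was 90 taxa in neomycin IV replicate 4, and the lowest was 45 taxa in PBS IV replicate 6, of run SB1. For that run 175 of the 488 taxa had no values and were read as 0. The PBS IV libraries of run SB1 held 68, 61 and 45 taxa, and those of run ok122 held 77, 51 and 68. Richness was not compared within run ok122 alone. The difference over both routes was 6.89 taxa (95% interval -3.67 to 17.6, two-sided exact permutation p = 0.188). It was 5.20 taxa by IP and 8.58 taxa by IV.

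**Figure D1:**
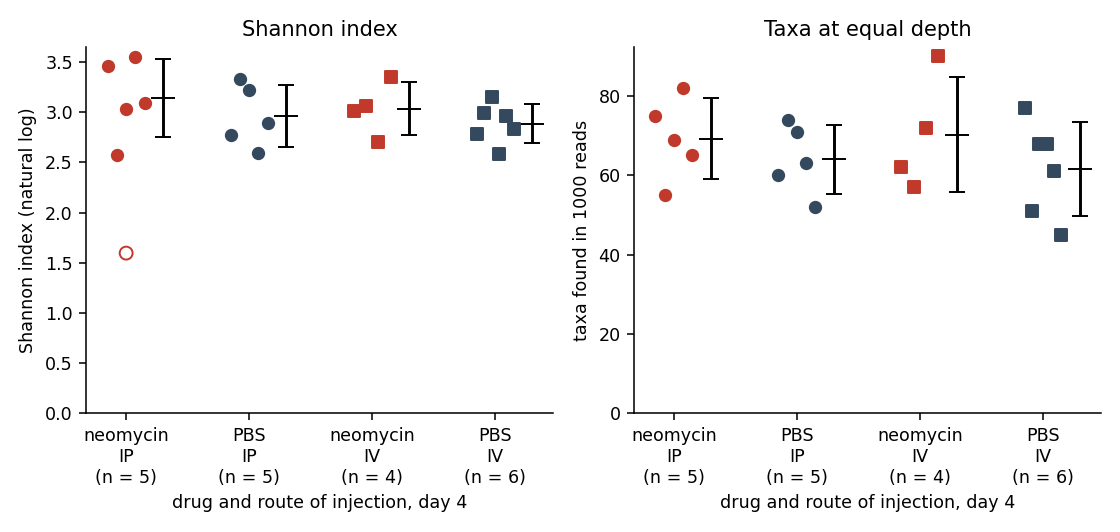
Shannon index (left, natural log) and number of taxa in 1000 reads (right) in each day 4 library of the 4 groups; filled symbols are libraries of at least 1000 reads, bars give mean ± SD of those, and the open circle is the library of 70 reads. The neomycin and PBS libraries overlap by both routes, and the open circle at 1.60 lies below all others.

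Composition was compared with Bray-Curtis distances of genus shares, where 0 means equal and 1 means no shared genus. The mean distance between a neomycin and a PBS library of the same route was 0.277 ± 0.0947 (SD, 49 pairs). Within neomycin groups it was 0.271 ± 0.0730 (16 pairs) and within PBS groups 0.303 ± 0.110 (25 pairs), so the mean between the drugs lay between both means within a drug. Drug accounted for 4.996% of the variation by IP (exact permutation p = 0.881), 11.1% by IV (exact p = 0.343) and 4.45% over both routes (exact p = 0.468, adjusted p = 0.702). With the library of 70 reads the share over both routes was 5.94% (exact p = 0.275), and within run ok122 alone it was 3.75% (exact p = 0.700).

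An Aitchison distance, which weighs ratios and so counts rare genera as much as abundant ones, gave another call. The share over both routes was then 8.28% (exact p = 0.0132, adjusted p = 0.0396), and the unadjusted exact p lay between 0.00540 and 0.0389 when each of the 20 libraries was left out in turn. With this distance and libraries thinned to 1000 reads the adjusted exact p was 0.1597, within run ok122 alone it was 0.246, and with the library of 70 reads 0.159. Without any of these changes the adjusted exact p was 0.476 by IP alone and 0.107 by IV alone.

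**Figure D2:**
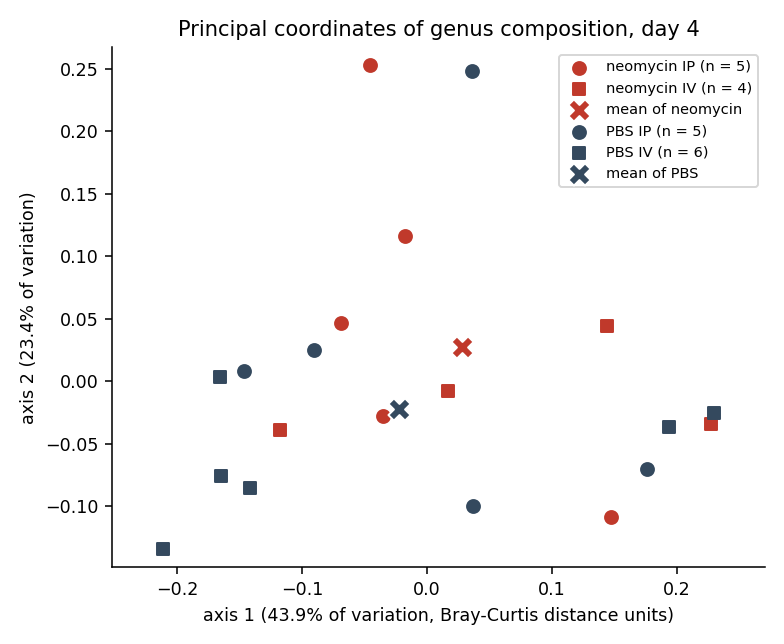
Principal coordinates of Bray-Curtis distances between the 20 libraries of at least 1000 reads, axis 1 holding 43.9% and axis 2 23.4% of the variation; colours give the drug, symbols the route, and crosses the mean of each drug. Neomycin and PBS libraries are interspersed on both axes.

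The 10 genera that were most abundant in all day 0 libraries of the series were followed first. They held most reads in both groups, and none was called. Prevotella, fermenting anaerobes of the Bacteroidaceae, ranged from 8.88% over a median of 15.0% to 38.5% with neomycin and from 2.63% over 13.3% to 41.2% with PBS. The PBS range enclosed the neomycin range. Its maximum was in PBS IV replicate 4, of run SB1, for which 6 of the 13 Prevotella taxa had no values. The log2 change of percent + 0.01 over both routes was 0.65 (95% interval -0.31 to 1.61, limma adjusted p = 0.590).

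Genera of the Muribaculaceae, polysaccharide-degrading anaerobes typical of the mouse gut, came next. CAG-485, an uncultured genus of this family known by its code, ranged from 7.67% over 12.3% to 19.5% with neomycin and from 8.18% over 15.9% to 24.4% with PBS (log2 -0.41, -0.87 to 0.06, limma adjusted p = 0.464). Duncaniella averaged 13.01% ± 3.44 with neomycin and 14.5% ± 5.63 with PBS (log2 -0.08, -0.52 to 0.37). Paramuribaculum averaged 7.70% ± 3.93 with neomycin and 8.00% ± 4.80 with PBS (log2 -0.11, -0.87 to 0.65), and Muribaculum 6.94% ± 1.84 and 6.43% ± 2.44 (log2 0.20, -0.29 to 0.69). Unclassified Muribaculaceae, UBA7173 and UBA3263 had log2 changes of -0.10, -0.14 and 0.39. The neomycin and PBS ranges overlapped for each of these genera. No values for run SB1 were given for 1 of 4 taxa of CAG-485, 1 of 4 of Paramuribaculum and 1 of 2 of UBA3263.

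The Lachnospiraceae among these genera are Firmicutes that ferment fiber. Unclassified Lachnospiraceae averaged 1.99% ± 2.08 with neomycin and 1.99% ± 2.25 with PBS (log2 0.05, -0.83 to 0.93). COE1 averaged 0.590% ± 0.302 with neomycin and 0.722% ± 0.561 with PBS (log2 -0.10, -1.08 to 0.88). By phylum, Bacteroidota held 86.4% ± 6.94 with neomycin and 88.5% ± 5.72 with PBS, and Firmicutes 12.1% ± 6.50 and 10.3% ± 5.53 (n = 9 and 11).

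**Figure D3:**
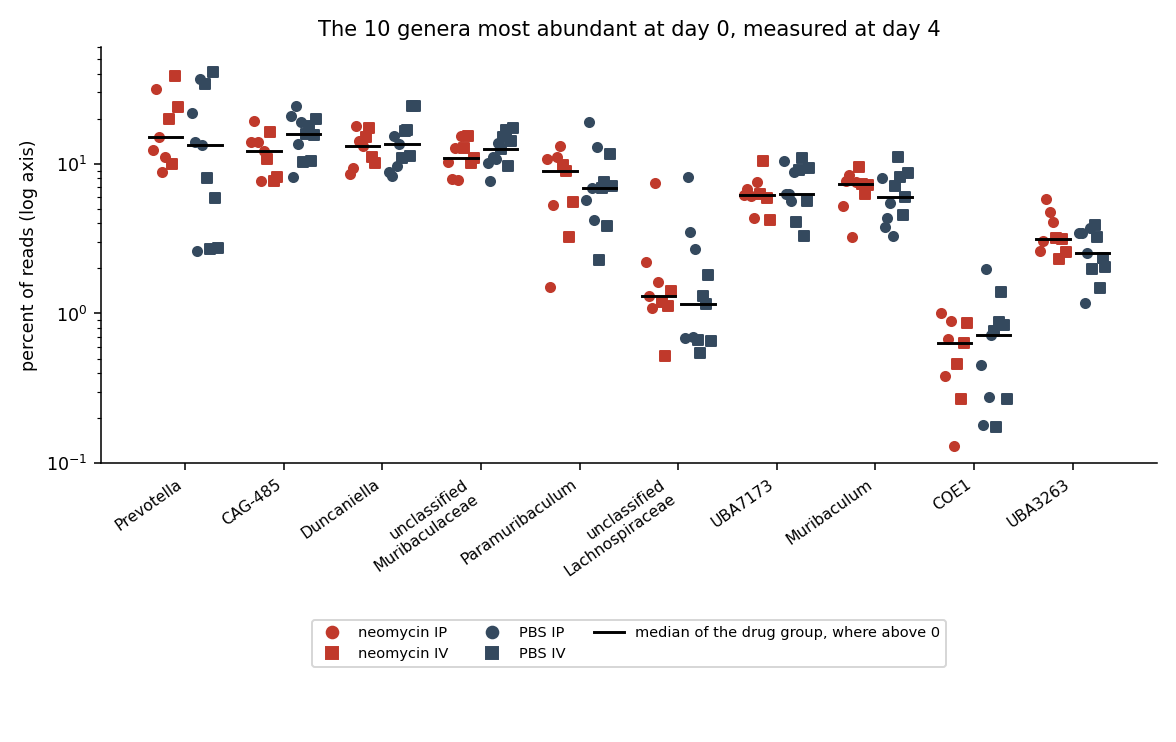
Percent of reads (log axis) of the 10 genera most abundant at day 0 in each injected library of day 4, neomycin left of PBS for each genus, with circles for IP and squares for IV and a bar at the median of each drug. The groups overlap for all 10 genera, and Prevotella spreads most widely in PBS, from 2.63% to 41.2%. Of its 13 taxa, 6 had no values for run SB1, which held the library at 41.2%.

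Across all genera, limma on log2(percent + 0.01) tested the 130 found in at least 4 of the 20 libraries. At an adjusted p of 0.05, it called 0 genera (0.0%) by IP, 0 (0.0%) by IV and 0 (0.0%) over both routes. At an unadjusted p under 0.05 there were 5, 12 and 16, and the smallest adjusted p was 0.857, 0.298 and 0.166. Over both routes 89 genera had a higher value with neomycin and 41 a lower one, with a median log2 change of 0.19. The 95% interval of a genus reached 1.03 to either side at the median, and for the least certain genus 2.43. In 0 of the 130 genera did the neomycin and PBS ranges lie apart. Neomycin libraries had the higher median depth by IV (41439 reads, against 21772 in PBS IV) and the lower one by IP (33080, against 40139 in PBS IP). After thinning each library to 1000 reads 76 genera could be tested, 0 were called, 7 had an unadjusted p under 0.05 (4 higher and 3 lower), and the median log2 change was 0.21. With the library of 70 reads 0 of 130 were called, 8 had an unadjusted p under 0.05, and the median was 0.04. As centred log ratios 0 were called, 17 had an unadjusted p under 0.05, and the median was 0.06. Only PBS IV libraries were in run SB1, so taxa without values for that run were read as 0 in PBS alone. Within run ok122 alone 125 genera were tested, and UBA6985 alone was called, by IV and over both routes. An unadjusted p under 0.05 was then found for 3 genera by IV (1 higher) and 11 over both routes (8 higher). The median over both routes was 0.13.

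The 5 genera with the smallest p over both routes are given as values, since none passed (limma adjusted p = 0.166 for each). UBA6985, an uncultured genus of the order RF39, was listed at 0 in 7 of 9 neomycin libraries and held 0.00181% and 0.00555% in the others. With PBS it was found in 8 of 11 libraries, with a median of 0.0387% and a maximum of 0.669%. Both neomycin values lay below every PBS value above 0, and the log2 change was -2.06 (95% interval -3.39 to -0.73). One of its 2 taxa had no values for run SB1. This genus was called lower in a fit of all day 4 samples of the series (log2 -2.07, limma adjusted p = 0.00894) and within run ok122 alone (log2 -2.65, limma adjusted p = 0.0445).

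The other 4 had higher values with neomycin. Odoribacter_865974, anaerobes of the Marinifilaceae that form short-chain fatty acids, ranged from 0.508% over a median of 0.753% to 2.08% with neomycin and from 0.0608% over 0.279% to 0.877% with PBS. Only the upper PBS libraries reached the neomycin range (log2 1.32, 0.47 to 2.18). UBA3282, an uncultured genus of the Lachnospiraceae, ranged from 0.171% over 0.446% to 3.10% with neomycin and from 0 over 0.248% to 0.629% with PBS (log2 1.76, 0.55 to 2.98). Both genera were found in all 9 neomycin libraries, and 1 of the 2 taxa of UBA3282 had no values for run SB1.

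Ruminococcus_C_59129, of the fiber-degrading Ruminococcaceae, was found in 6 of 9 neomycin libraries, at up to 0.423%, and in 2 of 11 PBS libraries, at 0.0276% and 0.288% (log2 1.84, 0.51 to 3.17). Without PBS IV replicate 3, which held the 0.288%, it was called higher by IV (log2 3.46, limma adjusted p = 0.0181). No other fit with 1 library left out called it. Against each mouse's own day 0 its log2 change over both routes was -0.24. Eubacterium_Q of the Lachnospiraceae was found in 4 of 9 neomycin libraries, at up to 0.183%, and listed at 0 in all 11 PBS libraries. Its 1 taxon had no values for run SB1, so 8 of those 11 zeros were measured.

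**Figure D4:**
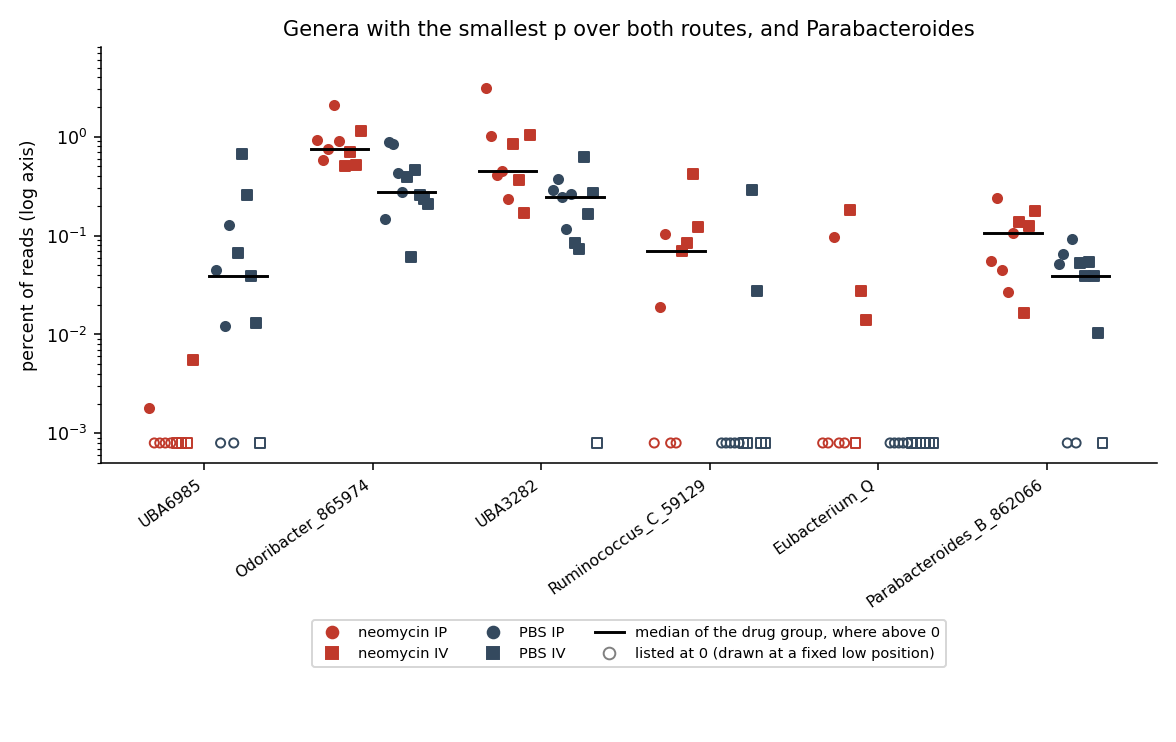
Percent of reads (log axis) in each injected library of day 4 for the 5 genera with the smallest p over both routes and for Parabacteroides_B_862066, neomycin left of PBS, with open symbols for libraries listed at 0, drawn at a fixed low position, and a bar at each median above 0. UBA6985 is at most 0.00555% in all neomycin libraries, while Odoribacter_865974 lies at or above 0.508% in them.

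The routes were also read apart. By IP the smallest p belonged to Pelethenecus, of the Anaeroplasmataceae, relatives of the wall-less mycoplasmas. It held 0.0172%, 0.00942%, 0.0181%, 0.107% and 0.00961% in the neomycin IP libraries and 0.124%, 0.116%, 0.109%, 0.148% and 0.142% in those of PBS IP. The log2 change was -2.09 by IP (limma adjusted p = 0.857) and -0.56 by IV. All 5 neomycin IP values were below all 5 of PBS IP, in a genus picked from 130 for its small p. How many of the 130 lay apart by IP alone was not counted. The other 4 of the 5 smallest p by IP were Ligilactobacillus (log2 -1.41), unclassified CAG-508 (1.40), Scatocola (2.27) and Erysipelatoclostridium (0.59). By IV they were, beside UBA6985, Ruminococcus_C_59129 and Eubacterium_Q, Veillonella_A (log2 1.07) and unclassified Enterococcaceae (1.46).

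A test of the difference between the routes (the IV change minus the IP change) called 0 of 130 genera (0.0%), with 3 at an unadjusted p under 0.05 and a smallest limma adjusted p of 0.921. The 5 smallest p were those of Veillonella_A (log2 difference 1.43), Ligilactobacillus (1.93), UBA946 (2.02), unclassified Enterococcaceae (1.56) and Burkholderia (-0.83). These genera were scarce: in the 20 libraries Veillonella_A was at most 0.0349%, Burkholderia at most 0.0304% and Ligilactobacillus at most 0.224%.

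Bacteria were then summed in 19 lists by family or habit. By a two-sided exact permutation within route, 0 of 19 lists (0.0%) passed an adjusted p of 0.05, and 1 had an unadjusted p under 0.05. The log2 change was above 0 in 14 lists, below 0 in 4, and 1 list was at 0 throughout. The Enterobacteriaceae, facultative Gram-negative bacteria that aminoglycosides act on, were found in 5 of 9 neomycin libraries and 3 of 11 PBS libraries. They held 2.72% in neomycin IV replicate 4, 0.665% in neomycin IP replicate 1, 0.137% in neomycin IV replicate 3 and at most 0.00605% in the others of that drug. With PBS they held 0.0793%, 0.0539% and 0.0419% in the libraries that had them. The log2 change was 1.45 (exact p = 0.199, adjusted p = 0.649). Their mean was 0.393% with neomycin, or 0.102% without neomycin IV replicate 4, against 0.0159% with PBS, or 0.00957% without PBS IP replicate 1.

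The other Proteobacteria held 0.330% ± 0.410 with neomycin and 0.164% ± 0.144 with PBS (log2 0.95, adjusted exact p = 0.649), while the median log2 change of their 3 tested genera was -0.06. Neomycin IP replicate 2 held 1.39% of them, and without it the neomycin mean was 0.198%. Parasutterella, a non-fermenting member of this phylum that lives in the gut, held 0.0885% ± 0.0704 with neomycin and 0.131% ± 0.118 with PBS (log2 -0.45, -1.74 to 0.85). Lactic acid bacteria held 0.132% ± 0.0828 with neomycin and 0.0662% ± 0.0816 with PBS (log2 1.08, adjusted exact p = 0.649), where the PBS mean was 0.0431% without PBS IP replicate 2.

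The list with the smallest p was the Tannerellaceae, at 0.103% ± 0.0749 with neomycin (n = 9) and 0.0368% ± 0.0308 with PBS (n = 11), a log2 change of 1.38 (exact p = 0.0259, adjusted exact p = 0.491). Its only tested genus was Parabacteroides_B_862066, bile-tolerant anaerobes, which ranged from 0.0166% over 0.106% to 0.240% with neomycin and from 0 over 0.0391% to 0.0932% with PBS. In 5 of 9 neomycin libraries it was above all PBS libraries (limma adjusted p = 0.306).

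Wall-less bacteria and relatives held 0.122% ± 0.134 with neomycin, or 0.0802% without neomycin IV replicate 4, and 0.250% ± 0.217 with PBS. The change of their sum was -0.93 on the log2 scale (adjusted exact p = 0.649), while the median of their 8 tested genera was 0.11, with 6 of the 8 at a higher value. The genera with lower values were UBA6985 and Pelethenecus. Akkermansiaceae, which feed on intestinal mucin, held 0.0670% ± 0.165 with neomycin and 0.484% ± 1.21 with PBS (log2 -1.20, adjusted exact p = 0.654), with 4.06% in PBS IV replicate 2. The neomycin mean was 0.0123% without neomycin IP replicate 3, and the PBS mean was 0.127% without PBS IV replicate 2.

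In the larger lists, Muribaculaceae held 62.8% ± 11.7 with neomycin and 68.8% ± 15.1 with PBS (3 of 8 tested genera at a higher value, median log2 -0.09), and Bacteroidaceae 19.9% ± 10.4 and 17.2% ± 14.9. Lachnospiraceae held 6.03% ± 3.82 with neomycin and 5.70% ± 3.74 with PBS (20 of 34 higher, median log2 0.03), an order of means that turned without neomycin IP replicate 1 or 5, PBS IP replicate 4 or PBS IV replicate 2, with 5.33% or 5.13% for neomycin and 6.09% for PBS in either case. Families of the Oscillospirales held 3.97% ± 2.67 with neomycin and 3.14% ± 2.11 with PBS (14 of 20 higher, median log2 0.26). The median over all 130 genera was 0.19, and 0 genera of any list were called. Helicobacteraceae were listed at 0 in all 20 libraries.

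Rikenellaceae with Marinifilaceae held 3.08% ± 2.83 with neomycin and 2.06% ± 1.56 with PBS. The remaining lists were scarce, and 1 library set the order of most of their means. Desulfovibrionaceae, which reduce sulfate, held 0.134% with neomycin and 0.158% with PBS, or 0.102% without PBS IP replicate 3 (log2 0.00). Mucispirillaceae held 0.0321% with neomycin and 0.145% with PBS, or 0.0259% without the same PBS library. Borkfalkiaceae with CAG-552 held 0.248% with neomycin, or 0.1967% without neomycin IV replicate 4, and 0.1973% with PBS. Taxa with no phylum held 0.0212% with neomycin, or 0.01245% without that library, and 0.01248% with PBS. Erysipelotrichaceae held 0.00598% with neomycin and were found in 1 of 11 PBS libraries, PBS IP replicate 2, at 0.0302%. Taxa seen in reagents, on skin and in food held 0.00638% with neomycin, or 0.00218% without neomycin IP replicate 5, and 0.00553% with PBS, or 0.00305% without PBS IV replicate 2. Bifidobacteriaceae with Eggerthellaceae held 0.0437% with neomycin and 0.0421% with PBS, and leaving out 1 of these libraries turned that order: neomycin IP replicate 1 or IV replicate 2 or 4, with neomycin means of 0.0355% to 0.0388%, or PBS IP replicate 3 or 4 or IV replicate 4 or 6, with PBS means of 0.0441% to 0.0463%.

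Each mouse was also set against its own stool of day 0. Libraries of both days with at least 1000 reads were at hand for 5 neomycin and 10 PBS mice. The Bray-Curtis distance between the days was 0.138, 0.383 and 0.143 in neomycin IP and 0.176 and 0.179 in neomycin IV. It was 0.120, 0.284, 0.320, 0.0894 and 0.279 in PBS IP and 0.291, 0.343, 0.397, 0.227 and 0.363 in PBS IV. By IV both neomycin values lay below all 5 of PBS. The mean was 0.204 ± 0.102 with neomycin and 0.271 ± 0.1001 with PBS, a difference over both routes of -0.0719 (95% interval -0.184 to 0.0481, two-sided exact permutation p = 0.205).

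By route the difference was 0.00280 for IP (exact p = 1) and -0.147 for IV (exact p = 0.0476, the smallest that 2 mice against 5 allow). PBS IV replicates 5 and 6 had day 4 libraries of run SB1, and both neomycin IV mice those of run ok122. Day 0 depth differed by IP, with 4202, 2856 and 1233 reads in neomycin and 10244 to 20821 in PBS. The distances were not compared within run ok122 alone or at equal depth. Without neomycin IP replicate 5, the mouse at 0.383, the difference over both routes was -0.112 (exact p = 0.0476). With all libraries, shallow ones of day 0 included, it was 0.0262 (exact p = 0.673). Before treatment, drug accounted for a share of 0.0514 of the variation between 8 mice later given neomycin and 11 later given PBS (permutation p = 0.447). Of 94 genera, 0 (0.0%) were called at day 0 over both routes by limma, and 5 had an unadjusted p under 0.05. By IP, 1 genus, Dysosmobacter of the Oscillospirales, was called lower at day 0 in mice later given neomycin (log2 -3.46, limma adjusted p = 0.0477). The day 0 libraries in that test held 4202, 19625, 2856 and 1233 reads in neomycin IP and 10244 to 20821 in PBS IP. A scarce genus is more often listed at 0 in a shallow library, and whether depth set this call was not tested.

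The nearest other treatment was the same drug by mouth, with PBS by mouth as its own control, so that the injected and oral comparisons share no samples. Between an oral neomycin and an oral PBS library the mean Bray-Curtis distance was 0.556 (20 pairs), where it was 0.277 for the injected groups. Within oral neomycin it was 0.564 (6 pairs) and within oral PBS 0.245 (10 pairs). Limma called 26 of 146 genera (17.8%) with oral neomycin (4 mice, against 5 given oral PBS). A test of the oral change minus the injected change called 18 of 146 genera (12.3%), 12 of them lower and 6 higher by mouth. Both counts come from a fit with 1 spread per genus for all groups. The oral neomycin libraries differed more among themselves than those of the other groups, so these p-values can be too small.

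Among the 12 genera lower by mouth, UBA3282 and COE1 of the Lachnospiraceae had the largest differences. Whether this family stood out among the genera tested was not tested. UBA3282 averaged 0.848% with injected neomycin and 0.228% with injected PBS, but 0.00184% with oral neomycin and 0.186% with oral PBS. Its log2 change was 1.76 by injection and -3.59 by mouth, a difference (oral minus injected, as for all below) of -5.36 (SE 1.08, limma adjusted p = 0.000811). COE1 averaged 0.590% with injected neomycin and 0.722% with injected PBS, and was at 0 in 3 of 4 libraries of oral neomycin, with 0.00980% in the fourth, against 0.480% with oral PBS (difference -5.07, SE 0.89, limma adjusted p = 0.000250). Butyribacter, also of this family, had a difference of -3.36 and was called in 27 of the 29 fits with 1 library left out. Its limma adjusted p was 0.103 with all libraries, 0.155 with a pseudocount of 0.1 and 0.455 after thinning. In a fit of all day 4 samples it was 0.0264.

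Genera of the Bacteroidota lay on both sides. Odoribacter_865974 averaged 0.902% with injected neomycin and 0.382% with injected PBS, against 0.161% with oral neomycin and 0.450% with oral PBS (difference -4.04, limma adjusted p = 0.00560). Its limma adjusted p was 0.107 with all libraries and 0.455 after thinning. UBA3263, Paramuribaculum and Duncaniella of the Muribaculaceae had differences of -3.61, -3.07 and -1.94. The limma adjusted p with all libraries was 0.195 for UBA3263 and 0.338 for Paramuribaculum. In a fit of all day 4 samples it was 0.0741 for both. Duncaniella was called in 11 of the 29 fits with 1 library left out, where its difference ran from -2.36 to -0.996, and in none of 4 other settings (limma adjusted p = 0.671 with all libraries, 0.0538 with a pseudocount of 0.1, 0.111 after thinning and 0.447 in a fit of all day 4 samples). Paramuribaculum was between 1.51% and 13.1% with injected neomycin and between 0.118% and 2.50% with oral neomycin.

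Parabacteroides_B_862066, Bacteroides_H and Phocaeicola_A_858004, by contrast, were higher by mouth. Parabacteroides_B_862066 averaged 0.103% with injected neomycin and 0.0368% with injected PBS, and held 6.59%, 1.87%, 0.894% and 1.81% in the oral neomycin libraries, with a mean of 0.0453% in oral PBS (difference 3.99, limma adjusted p = 0.00746). Every oral neomycin library was above all injected ones. Bacteroides_H averaged 0.804% with injected neomycin and 15.0% with oral neomycin (difference 3.66). Phocaeicola_A_858004 averaged 0.0298% with injected neomycin, and among the oral neomycin libraries 42.4%, 0.0586%, 0.563% and 0.851% (difference 4.68).

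Outside this phylum, Parasutterella averaged 0.0885% with injected neomycin and 1.47% with oral neomycin (difference 4.31, limma adjusted p = 0.00746). Akkermansia averaged 0.0670% with injected neomycin, and held 0.996%, 21.4%, 0.0329% and 0.109% with oral neomycin (difference 5.66, limma adjusted p = 0.0355). It averaged 0.484% with injected PBS and 0.0285% with oral PBS, and its log2 change was -1.19 by injection and 4.45 by mouth. It was called in 22 of the 29 fits with 1 library left out. The limma adjusted p was 0.0514 with all libraries and 0.0837 with a pseudocount of 0.1. It was 0.0967 in a fit of all day 4 samples and 0.00851 after thinning. Stercorousia, of the Gastranaerophilaceae, non-photosynthetic relatives of cyanobacteria, had a difference of 2.95. Enterenecus of the Oscillospiraceae and UMGS1994 of the CAG-508 family had differences of -4.10 and -4.44, and the last was not called with oral neomycin alone (limma adjusted p = 0.125). The other 3 genera, all lower by mouth, were CAG-273, unclassified Dehalobacteriaceae and unclassified Rikenellaceae. Unclassified Rikenellaceae (difference -2.91) was called in 16 of the 29 fits with 1 library left out and had 0.11 after thinning.

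These counts rest on the 4 oral neomycin mice and on the setting. Of the 18 genera, 10 were called with each of the 29 libraries left out in turn. Other settings called partly other genera. With all libraries 7 genera were called, 7 of them among the 18, and with a pseudocount of 0.1 11, with 10 among the 18. After thinning to 1000 reads 9 were called, 8 of them among the 18. A fit of all day 4 samples called 19, with 11 among the 18. Without PBS PO replicate 5, 11 genera were called in all. COE1, Parasutterella and UBA3282 were called in each of these settings.

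**Figure D5:**
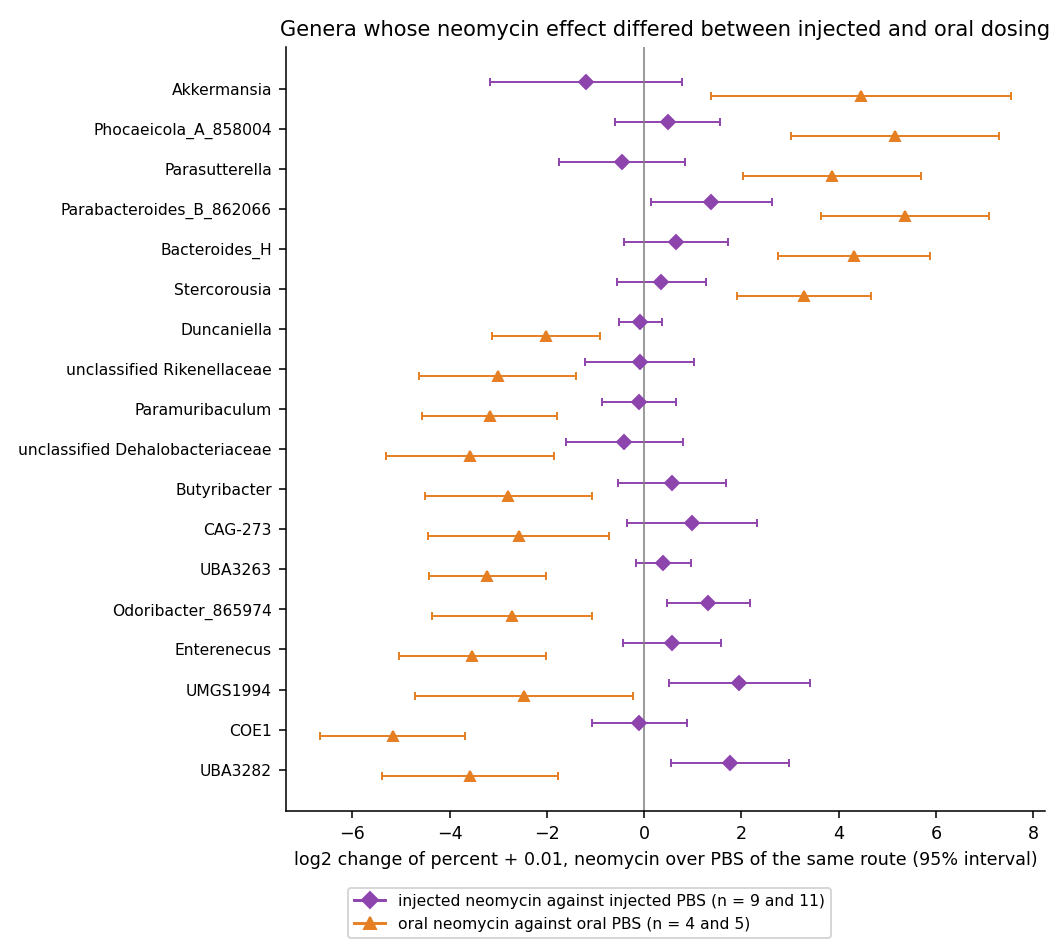
Log2 change of percent + 0.01 with 95% interval for the 18 genera whose change differed between injected and oral neomycin, diamonds for injected neomycin against injected PBS (9 and 11 libraries) and triangles for oral neomycin against oral PBS (4 and 5 libraries), ordered by the difference. The injected intervals of 14 genera cross 0, while the oral intervals of all 18 lie to 1 side of 0. The oral intervals use 1 spread per genus for all groups and can be too narrow for the more variable oral neomycin libraries.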

How the data were processed

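The authors deposited 1 composition table of 16S V4 sequencing, whose signal values give each taxon's share scaled to 100000 per library, and 2 sample sheets. No source used here names the tools or database behind the table. Members and lists were chosen with earlier results of these data known. Every column was matched to a sample by its identifier, and empty cells were read as 0. The values were whole multiples of 1 read (tolerance 0.02 reads), which gave each library's depth. The smallest value was 2 reads in 183 of 198 libraries, and the deposited table holds no counts, so no count model was run. Libraries under 1000 reads were left out and put back as an alternative.

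Shannon index (natural log), taxa in 1000 reads and taxon lists were compared by two-sided exact permutation within route, with intervals by inverting the test. Composition was compared by an exact permutation test of distances within route. Genera found in at least 4 libraries were tested with limma 3.58.1 in R 4.3.3 on log2(percent + 0.01), with Benjamini-Hochberg adjustment at 0.05. The limma fit was run on simulated normal values with known changes added. Those values held no excess of zeros, no closed shares and no run difference, so they check the code and not its error rate here. Other steps used Python 3.11.15, numpy 2.4.6, scipy 1.17.1 and pandas 2.3.3. The same replicate number did not pair samples: correlations of deviations ran from -0.25 to 0.16. Of 41 pairs of libraries within a group, 0 agreed within sampling noise.

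Named genera were those past the threshold (up to 10 in a direction), otherwise the 5 with the smallest p in a comparison, the 10 with the highest mean percent over all day 0 libraries, up to 8 by size of the oral contrast, and the 3 that oral neomycin raised most. The other genera of the oral contrast, and Dysosmobacter, CAG-510, Angelakisella, Lactobacillus, Eubacterium_N, Lancefieldella, Ruminococcus_E, unclassified Acutalibacteraceae, and Aitchison distances combined with another choice, were chosen after their values were seen.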

Additional observations from a re-analysis of the deposited data

Results flagged for a closer look

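Of 187 groups of 4 to 6 libraries tested for a library far from the others, 24 had one (12.8%). The rule flags about 1 in 20 groups by chance for normal values, a rate that was not tested here: in 12 of the 24 all other libraries were at 0, and some lists repeat their genera. In neomycin IP, replicate 1 stood highest for UBA6985 (0.00181%), Veillonella_A (0.00272%), unclassified Enterococcaceae (0.0118%), UBA946 (0.0145%) and the Enterobacteriaceae (0.665%). It was also the deepest library. Replicate 2 stood highest for the Bacteroidaceae (32.0%) and lowest for the wall-less bacteria and relatives (0.00942%). Replicate 3 stood highest for Eubacterium_Q (0.0967%) and replicate 5 for Pelethenecus (0.107%). In neomycin IV, replicate 2 stood lowest for Parabacteroides_B_862066 and with it the Tannerellaceae (0.0166% for both). Replicate 3 stood highest for Erysipelatoclostridium (0.00641%). Replicate 4 stood highest for UBA6985 (0.00555%), Rikenellaceae with Marinifilaceae (2.63%) and families of the Oscillospirales (8.06%).

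In PBS IP, replicate 1 stood highest for Akkermansia and with it the Akkermansiaceae (0.875% for both), and replicate 4 for Scatocola (0.0257%). Replicate 2 stood highest for unclassified Enterococcaceae (0.0215%) and Erysipelotrichaceae (0.0302%). Replicate 3 stood highest for Desulfovibrionaceae (0.713%) and Mucispirillaceae (1.33%), and replicate 5 for Veillonella_A (0.0349%). In PBS IV, replicate 1 stood highest for the Enterobacteriaceae (0.0419%).

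For 12 named genera the change with neomycin differed between oral and injected treatment by limma's test of the oral minus the injected log2 change. It was lower by mouth for Duncaniella (-1.94, called in 11 of 29 fits with 1 library left out), Paramuribaculum (-3.07), UBA3263 (-3.61), Odoribacter_865974 (-4.04), Enterenecus (-4.10), UMGS1994 (-4.44), COE1 (-5.07) and UBA3282 (-5.36). It was higher by mouth for Parabacteroides_B_862066 (3.99), Parasutterella (4.31), Phocaeicola_A_858004 (4.68) and Akkermansia (5.66, called in 22 of 29 such fits). Of these 12, only COE1, Parasutterella and UBA3282 were called in every other setting of that contrast.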

How the results depend on the processing

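With all libraries the Shannon difference by IP was -0.0788, the difference in day 0 to day 4 distance 0.0262, and 1 genus (CAG-510) was called at day 0. The Aitchison share over both routes was 0.0828 and passed the threshold. The day 0 to day 4 difference ran from -0.112 (without neomycin IP replicate 5, where it passed) to -0.0510 with each mouse left out. A fit of all day 4 samples, which takes its spread from the groups of all antibiotics, called 5 genera by IV (UBA6985 lower, Eubacterium_N, Lancefieldella, Ruminococcus_E and unclassified Acutalibacteraceae higher) and 3 over both routes (UBA6985 lower, Angelakisella and Lactobacillus higher). Those higher by IV were scarce. Lancefieldella and Ruminococcus_E were each found in 2 neomycin and 0 PBS libraries, at up to 0.00854% and 0.0499%. Eubacterium_N and unclassified Acutalibacteraceae were each found in 3 neomycin libraries and 1 PBS library, at up to 0.0111% and 0.0444%. Run ok122 alone called 1 by IV and 1 over both routes, UBA6985 each time; all IP libraries were in that run. With each library left out, 0 to 1 genera were called by IV. The replicate block called 0 genera by IP, IV and over both routes. The oral contrast called 7 genera with all libraries, 11 with a pseudocount of 0.1, 9 after thinning, and 11 to 26 with each library left out (11 without PBS PO replicate 5, 26 without neomycin IP replicate 2).

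Log2 changes of named genera over both routes that turned sign, none of them called, were these. Duncaniella had 0.042 in run ok122, 0.023 with the replicate block and -0.16 to 0.0031 with each library left out. Paramuribaculum had -0.25 to 0.16, unclassified Lachnospiraceae -0.17 to 0.29, COE1 -0.28 to 0.13 and UBA946 -0.23 to 0.63 with each left out. Unclassified Lachnospiraceae had -0.63 with all libraries, -0.081 as centred log ratio and -0.042 with the block. Against each mouse's own day 0, Muribaculum had -0.093, COE1 0.41, Ruminococcus_C_59129 -0.24 and UBA946 -0.65. COE1 had 0.0073 in run ok122 and UBA3263 -0.36 with all libraries. In the oral contrast unclassified Rikenellaceae, called at -2.91, had 0.11 after thinning. The cause was not tested. A planned count model was not run. Depth limits rare genera: 3 reads were 0.00272% to 0.0351% of a library.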
